A study of Homo sapiens with 6 samples.

Results

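The genes examined were the beta subunits of the sodium pump and the small FXYD proteins that regulate it. They were taken by gene symbol from the count table as ATP1B1, ATP1B2, ATP1B3, FXYD2, FXYD3, FXYD5 and FXYD6, and are 7 of the 31831 genes listed there. Their levels were compared between HK-2 cells with and without overexpression of hnRNP-F, an RNA-binding protein of the heterogeneous nuclear ribonucleoproteins. HK-2 is a permanent cell line grown from proximal tubule epithelium of human kidney. All the cells were kept in medium with 30 mM glucose for 72 h. The control cells (HG-NC) carried the empty vector, given as a control plasmid in the labels and as a control lentivirus in the study's methods. The overexpressing cells (HG-OE) carried a lentiviral construct for hnRNP-F. The gene identifier that the methods cite for it is not that of human HNRNPF in the RefSeq table used here, so how much of the HNRNPF counts came from the construct is not known. There were 3 libraries per group, all from this single line, and no group at a lower glucose concentration or with mannitol was analysed here, so each difference is one of vector within high glucose.

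The sodium pump (Na,K-ATPase) moves sodium out of the cell and potassium into it at the cost of ATP. Its catalytic alpha subunit needs a beta subunit, a glycoprotein, to fold and reach the plasma membrane, and FXYD proteins bind the complex and tune its affinity for ions. In the proximal tubule the pump sits in the basolateral membrane, and the sodium gradient that it makes drives the uptake of sodium with glucose, phosphate, bicarbonate and amino acids from the filtrate. ATP1B1 is the main beta subunit of kidney epithelium, ATP1B2 is known from glia as an adhesion molecule, and ATP1B3 occurs in many tissues. FXYD2 is the gamma subunit of the renal pump, FXYD5 (dysadherin) also affects adhesion between cells, FXYD6 is best known from brain, and FXYD3 from stomach, colon and tumours of epithelium.

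The FXYD proteins share a short signature after which the family is named, a phenylalanine, any residue, a tyrosine and an aspartate. The coding bases of that signature are shown because they define which of the genes belong together and where the family members differ. Each stretch was read from the MANE Select transcript of GENCODE release 44 on GRCh38, runs 5′ to 3′ on the coding strand over 30 bases, and has the 12 bases of the signature in capitals.
FXYD2: gtggacccgTTCTACTATGACtatgagacc
FXYD3: aacagtcctTTCTACTATGACtggcacagc
FXYD5: gatgaccccTTCTTCTATGATgaacacacc
FXYD6: atggaccctTTTCATTATGATtaccagacc
In each of the 4 genes the stretch was split by an intron after base 10 of the capitals, and the intron was 198 bases long in FXYD2, 1519 in FXYD3, 79 in FXYD5 and 124 in FXYD6. FXYD2 and FXYD3 had the same 12 capital bases, while FXYD6 shared 8 of 12 with each of the other genes. Over the whole stretch FXYD2 and FXYD6, neighbours on chromosome 11, had 22 of 30 identical bases. FXYD3 and FXYD5, both on chromosome 19, had 18 of 30. The signature began at codon 19 of 66 in FXYD2, 30 of 87 in FXYD3 and 30 of 95 in FXYD6. In FXYD5 it began at codon 135 of 178, behind the long extracellular part for which that protein is known.

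The libraries held total counts of 25507595 to 29444841, and 17142 genes had enough counts to be tested. HNRNPF was 304, 319 and 311 CPM (counts scaled to a common total by edgeR's TMM library sizes) in the HG-NC libraries and 430.5, 452 and 423 CPM in the HG-OE libraries, a log2 fold change of 0.48 ± 0.0388 (standard error, SE, adjusted p = 2.80e-07). Adjusted p-values throughout are those of the quasi-likelihood test of edgeR, adjusted by the Benjamini-Hochberg method across all genes tested. At an adjusted p under 0.05, 51.8% of all genes tested differed between the groups, 25.9% being higher and 25.9% lower in HG-OE, and 5.82% also differed at least 2-fold. The quartiles of all log2 fold changes were −0.26 and 0.29. With so many genes past the threshold, passing it is no particular property of a gene here.

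The library HG-OE replicate 3 stood apart in genes typical of other tissues. ALB, the gene of serum albumin, was at 149 CPM there and at 2.79 CPM or less in each of the other 5 libraries. That 2.79 CPM was HG-NC replicate 3, with 78 counts of ALB and 65 of FGA, another liver marker. HG-NC replicates 1 and 2 and HG-OE replicates 1 and 2 had 4 counts or fewer of each. The summed liver markers of HG-NC replicate 3, at 270 CPM, lay between those of the other HG-NC libraries. Among 10 squamous epithelium markers, 9 were higher in this library than in both other HG-OE libraries, and their summed level was 90.55 CPM against 16.25 to 19.9 CPM in the others. Among 12 liver markers, 11 were higher in it than in both other HG-OE libraries, with a sum of 736 CPM against 463 and 464.5 CPM in those and 267.5 to 278 CPM in HG-NC. Most of that sum outside HG-OE replicate 3 was SERPINA1, at 258 to 275 CPM across HG-NC, with 457 and 458 CPM for HG-OE replicates 1 and 2 and 395 CPM for HG-OE replicate 3. The 7 listed markers of distal nephron and collecting duct summed to 18.6 CPM in it and to 1.70 CPM or less elsewhere. AQP3 alone was at 17.0 CPM of that sum, and 3 of the 7 were higher in it than in both other HG-OE libraries. The 13 listed proximal tubule markers summed to 44.4 to 45.5 CPM in HG-NC and to 55.8 to 66.8 CPM in HG-OE, with MIOX at 27.5 to 29.7 and 33.4 to 39.0 CPM, GATM at 9.57 to 10.4 and 11.65 to 13.4 CPM, and SLC5A2 at 2.87 to 4.54 and 3.21 to 3.85 CPM. Other defining genes were at or near 0, since LRP2, SLC5A1 and HNF4A had no count outside HG-OE replicate 3, and AQP1 was at 0.250 CPM or less in every library. The 8 general epithelial markers summed to 1529 to 1598 CPM in HG-NC and 1711 to 2300 CPM in HG-OE. They did not move together. KRT8 rose from 296.5 to 755 CPM on average and KRT18 from 206 to 349 CPM, and they were highest in HG-OE replicate 3. KRT7 and CDH16 rose too, while KRT19, EPCAM and PAX8 fell (log2 fold change −0.55, −0.56 and −0.51, adjusted p = 1.46e-04, 3.92e-06 and 3.04e-06). CDH1 was too low to be tested, at 13.1 CPM in HG-OE replicate 3 and at 0.3435 CPM or less in every other library. The 8 mesenchymal markers summed to 5269 to 5450 CPM in HG-NC and 5298 to 5617 CPM in HG-OE. That last sum was mostly FN1, which fell from 4325 to 3645 CPM on average, while VIM rose from 808 to 1500 CPM, CDH2 from 205.5 to 245 CPM and PDGFRB from 0.453 to 2.15 CPM (adjusted p = 6.76e-05, 9.56e-10, 1.44e-04 and 1.90e-05). The 7 endothelial and immune markers summed to 2.71 to 3.93 CPM. In bulk libraries like these, fewer cells of a type and less RNA per cell cannot be told apart. Whether the raised markers of HG-OE replicate 3 came from other cells or from some of the HK-2 cells was not tested. Results that change without HG-OE replicate 3 are given below without it as well.

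**Figure D1:**
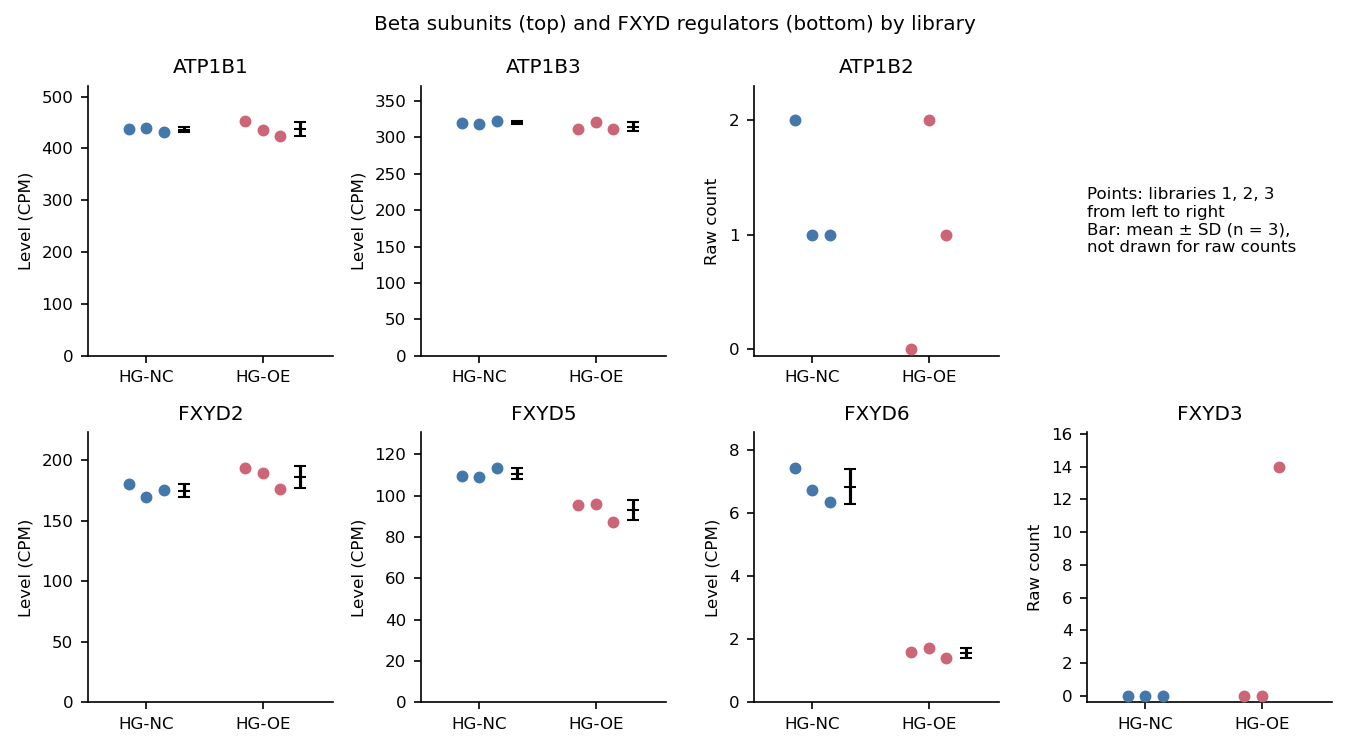
Level of each beta subunit (top row) and FXYD gene (bottom row) in every library, in CPM on axes that start at 0, with the mean ± SD of 3 libraries as a bar. ATP1B2 and FXYD3 are drawn as raw counts with no bar. The groups separate for FXYD5 and FXYD6, and the counts of FXYD3 come from HG-OE replicate 3 alone.

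The beta subunit mRNAs stayed within a few percent of their control level. ATP1B1 (ENSG00000143153.13, chr1:169105697-169310992, plus strand) was at 437, 440 and 431 CPM in HG-NC replicates 1, 2 and 3, and at 452, 435 and 424 CPM in HG-OE replicates 1, 2 and 3. The highest and the lowest of these 6 libraries were both HG-OE libraries, so the groups overlapped. The means were 436 ± 4.52 CPM and 437 ± 14.2 CPM (SD, n = 3 libraries each). The log2 fold change was 0.0051 ± 0.0368 (SE, adjusted p = 0.918), and the ratio of HG-OE to HG-NC was 1.00 with a 95% confidence interval from 0.950 to 1.06. The exact two-sided permutation test over the libraries gave p = 0.9, where 3 libraries against 3 cannot go below 0.1. Of the 4 other coding genes tested within 250 kb, NME7 rose by 0.21 on the log2 scale (adjusted p = 0.00457), BLZF1 and SLC19A2 fell by 0.27 and 0.25 (adjusted p = 0.00309 and 0.0115), and CCDC181 did not pass. The annotation places NME7 partly over ATP1B1. Whether the counting used the strand of the reads is not given in the sources used here, so reads within the overlap of both genes cannot be told apart.

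ATP1B3 (ENSG00000069849.11, chr3:141876124-141926549, plus strand) was at 320, 318.5 and 322 CPM in HG-NC and at 311, 321 and 311 CPM in HG-OE. HG-OE replicate 2 lay among the control libraries and the other two lay below them. The means were 320 ± 1.90 and 314.5 ± 5.94 CPM (SD, n = 3). The log2 fold change was −0.026 ± 0.0354 (SE, adjusted p = 0.572, exact two-sided permutation p = 0.3), and the 95% confidence interval of the ratio ran from 0.932 to 1.04. Of 3 other coding genes tested within 250 kb of ATP1B3, 2 fell, RNF7 by 0.32 and TFDP2 by 0.25 on the log2 scale (adjusted p = 5.80e-05 and 0.00237). The median of 68 well-counted genes within 10 Mb of ATP1B3 was −0.18, so relative to its neighbourhood ATP1B3 was 0.16 higher, a difference that was not tested.

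ATP1B2 (ENSG00000129244.9, chr17:7646627-7657770, plus strand) had 2, 1 and 1 counts in HG-NC and 0, 2 and 1 counts in HG-OE. These are at or under the 3 counts that a library with a count of 0 still allows, a limit that covers counting error only. The gene was not tested, and no difference was detectable at this depth.

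FXYD2, the gamma subunit, was the most counted FXYD gene and its groups overlapped by a narrow margin. FXYD2 (ENSG00000137731.14, chr11:117800844-117828698, minus strand) was at 180, 169 and 175 CPM in HG-NC and at 194, 189 and 176 CPM in HG-OE. HG-OE replicates 1 and 2 were above every control library, while HG-OE replicate 3 fell between HG-NC replicates 1 and 3. The means were 175 ± 5.40 and 186 ± 9.15 CPM (SD, n = 3). The log2 fold change of 0.092 did not pass the test (SE 0.0445, adjusted p = 0.1, exact two-sided permutation p = 0.2), with a 95% confidence interval from −0.0039 to 0.19. Without HG-OE replicate 3, the library with raised markers of other tissues, it was 0.13 with an adjusted p of 0.00448. How far the RNA of those markers bears on the value of FXYD2 was not tested.

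FXYD5 fell modestly, and in every HG-OE library. FXYD5 (ENSG00000089327.15, chr19:35154730-35169881, plus strand) was at 109.5, 109 and 113.5 CPM in HG-NC and at 95.6, 96.1 and 87.3 CPM in HG-OE. Every HG-OE library lay below every HG-NC library, and HG-OE replicate 3 was the lowest. The means were 111 ± 2.49 and 93.0 ± 4.95 CPM (SD, n = 3). The log2 fold change was −0.25 ± 0.0460 (SE, adjusted p = 4.34e-04), a change of −16.0% with a 95% confidence interval from −21.5% to −9.99%. The exact two-sided permutation p was 0.1, the smallest possible. Without HG-OE replicate 3 the log2 fold change was −0.21 (adjusted p = 8.01e-05).

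The neighbourhood of FXYD5 on chromosome 19 was also lower. The median log2 fold change of 209 well-counted genes within 10 Mb of FXYD5 was −0.16, against 0.011 over all genes tested. Taking that median off left −0.087 for FXYD5. Of 9 other coding genes tested within 250 kb, the transcription factor genes USF2 and ZNF30 fell, by 0.24 and 0.79 (adjusted p = 2.82e-04 and 0.00113). In the same window ZNF792 rose by 0.53 and CD22, a receptor gene of B cells, by 1.01 (adjusted p = 0.0152 and 9.43e-06). The other 5 did not pass.

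FXYD6 had the largest fold change of the 5 genes tested, at a low level. FXYD6 (ENSG00000137726.17, chr11:117836976-117877486, minus strand) had 189, 182 and 177 counts in HG-NC and 46, 50 and 41 counts in HG-OE. In CPM these were 7.43, 6.72 and 6.33 against 1.585, 1.72 and 1.40. The highest HG-OE library was far below the lowest HG-NC library. The means were 6.83 ± 0.558 and 1.57 ± 0.160 CPM (SD, n = 3). The log2 fold change was −2.12 ± 0.153 (SE, adjusted p = 1.09e-07), and HG-OE stood at 0.230 times the control level with a 95% confidence interval from 0.183 to 0.289. The exact two-sided permutation p was 0.1, again the smallest possible. With each library left out in turn the log2 fold change stayed between −2.19 and −2.04.

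FXYD6 and FXYD2 lie 8278 bases apart on the same strand, and a readthrough gene that joins them, FXYD6-FXYD2 (ENSG00000255245.4, chr11:117820163-117876667, minus strand), is counted separately. It had 26, 18 and 29 counts in HG-NC and 8, 16 and 5 counts in HG-OE. Every HG-OE library was below every control library, and the log2 fold change was −1.44 ± 0.409 (SE, adjusted p = 0.00923). Leaving out 1 library at a time moved it between −2.003 and −1.13, with adjusted p-values from 0.00302 to 0.0447. By the annotation, 390 exonic bases of the readthrough are also exons of FXYD6 and 392 are exons of FXYD2, which together make up its whole exon length of 782 bases, so the values of the readthrough are uncertain. The shared bases are 7.82% of the exon bases of FXYD6 and 6.99% of those of FXYD2. A further 625 exon bases of FXYD6, 12.5% of them, lie opposite the antisense gene FXYD6-AS1, whose reads cannot be told apart from those of FXYD6 if strand was not used.

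The genes around FXYD6 did not move as one. The median log2 fold change of 108 well-counted genes within 10 Mb was −0.0020. DSCAML1 is a cell adhesion gene that the annotation places partly over FXYD2. It was at 4.01, 4.36 and 3.61 CPM in HG-NC and at 4.38, 3.71 and 3.585 CPM in HG-OE. Its log2 fold change was −0.038 (adjusted p = 0.848). FXYD2 had far more counts, a mean of 5053 against 110 for DSCAML1, and reads within the overlap may belong to either gene. IL10RA, the gene of an interleukin 10 receptor chain on the other side of FXYD6 at a distance of 108884 bases, was at 4.64, 6.13 and 4.90 CPM in HG-NC and at 1.93, 1.65 and 0.785 CPM in HG-OE. Its log2 fold change was −1.84 ± 0.251 (SE, adjusted p = 3.53e-05). Of the 4 tested coding genes within 250 kb of FXYD6, FXYD2 and DSCAML1 did not pass, while IL10RA and the readthrough fell.

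**Figure D2:**
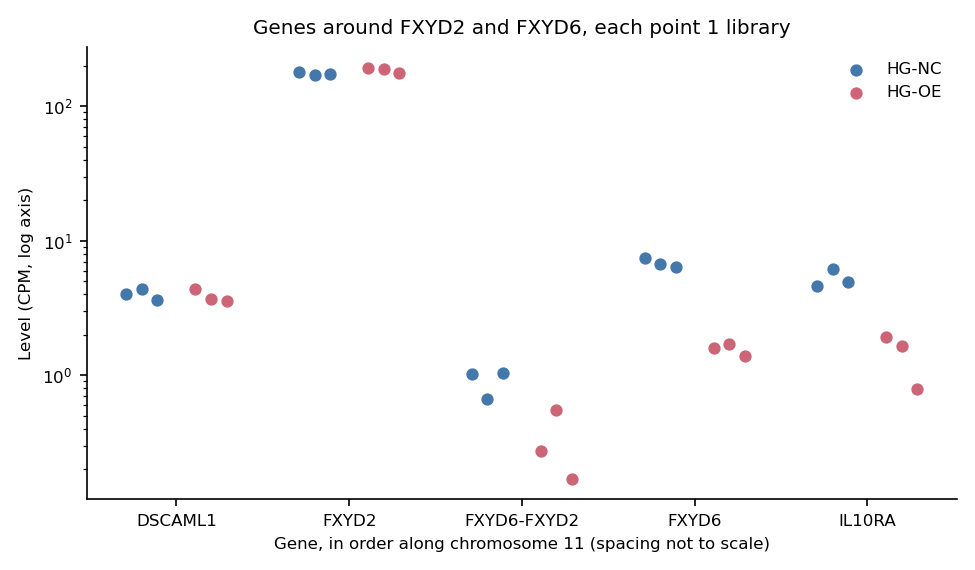
CPM on a log axis of the coding genes tested around FXYD2 and FXYD6 on chromosome 11, each point being 1 library. FXYD6, FXYD6-FXYD2 and IL10RA have all HG-OE points below the HG-NC points, while those of FXYD2 and DSCAML1 overlap.

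FXYD3 (ENSG00000089356.19, chr19:35115823-35124324, plus strand) had no count in any HG-NC library or in HG-OE replicates 1 and 2, and 14 counts in HG-OE replicate 3. Each 0 is compatible with as many as 3 counts, for counting error only. The gene was too low to be tested. The same library alone held 334 counts of KRT5 and 274 of KRT6A, keratins of squamous epithelium, and 323 of HNF4A, a transcription factor gene of liver and proximal tubule. Those counts move with the counts of FXYD3, and their part in them was not tested.

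Counted together, 5 of the 7 genes were tested. None rose, FXYD5 and FXYD6 fell, and ATP1B1, ATP1B3 and FXYD2 did not pass. This is 2 of 5 at an adjusted p under 0.05, where 51.8% of all genes tested passed. Only FXYD6 among the 5 changed at least 2-fold, where 5.82% of all genes did. The groups did not overlap for FXYD5 and FXYD6, and did not overlap for 59% of all genes tested. These counts are close to what genes at large gave, and are no result about the group. Their median log2 fold change was −0.026, against 0.011 for all genes.

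**Figure D3:**
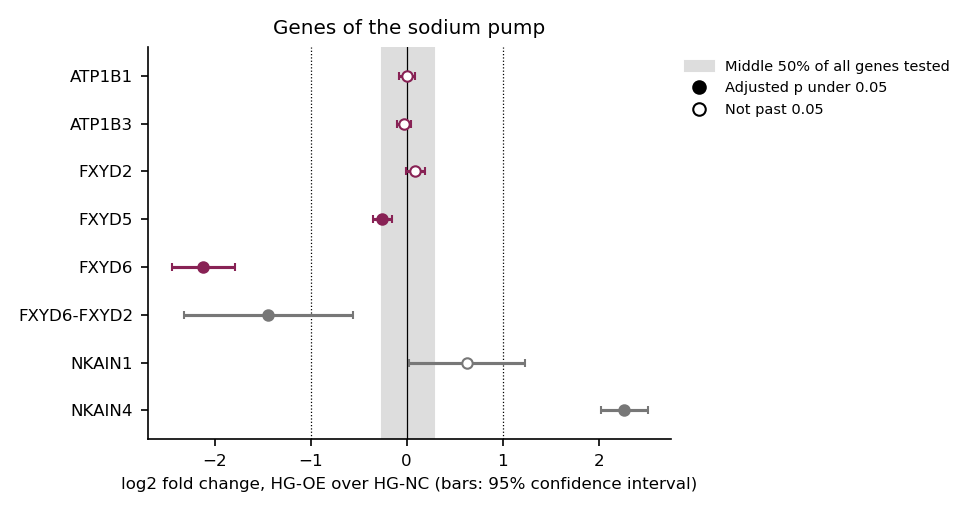
log2 fold change of HG-OE over HG-NC with its 95% confidence interval for genes of the sodium pump, with beta subunits and FXYD genes in purple and the other pump genes in grey. The grey band runs between the quartiles of all genes, from −0.26 to 0.29, and dotted lines mark 2-fold. FXYD6, FXYD6-FXYD2 and NKAIN4 lie past a 2-fold change.

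Levels between genes were compared per length, first in the deposited FPKM. In HG-NC the order was ATP1B1 (136 ± 0.970 FPKM), ATP1B3 (109 ± 1.04), FXYD5 (33.1 ± 0.870), FXYD2 (27.9 ± 0.854), FXYD6 (1.22 ± 0.0971), ATP1B2 (0.0133 ± 0.00577) and FXYD3 at 0 (SD, n = 3). In HG-NC no library of one of these genes overlapped the range of its neighbour in the order. In HG-OE the FPKM of FXYD2 was 29.4 ± 1.51 and that of FXYD5 27.5 ± 1.47, and their ranges of 27.8 to 30.7 and 25.8 to 28.5 overlapped. Within each HG-OE library, however, FXYD2 was above FXYD5, with a ratio of 1.08, 1.05 and 1.08. In each HG-NC library it was below, with a ratio of 0.877, 0.829 and 0.822.

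The make-up of the beta subunits by FPKM overlapped between the groups. ATP1B1 was 55.5%, 55.8% and 55.0% of the summed beta subunit FPKM in HG-NC and 57.1%, 55.3% and 55.5% in HG-OE (exact two-sided permutation p = 0.6, and 0.9 adjusted over the 3 beta shares). ATP1B3 made up nearly all of the rest, 44.6% ± 0.403 in HG-NC and 44.1% ± 0.970 in HG-OE (SD, n = 3). ATP1B2 was under 0.01% in each library.

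The make-up of the FXYD genes shifted in every library. FXYD2 was 45.7%, 44.4% and 44.3% of the summed FXYD FPKM in HG-NC and 51.7%, 50.9% and 51.5% in HG-OE. FXYD5 was 52.2%, 53.6% and 53.9% in HG-NC and 47.85%, 48.6% and 47.85% in HG-OE. FXYD6 was 2.12%, 1.98% and 1.80% in HG-NC and 0.471%, 0.516% and 0.463% in HG-OE. For each of these 3 genes the groups did not overlap and the exact two-sided permutation test gave p = 0.1, its smallest value (0.133 after Benjamini-Hochberg adjustment over the 4 FXYD shares). The shares of a library add up to 100%, so these are not separate results. The summed FPKM of the FXYD genes was 62.2 ± 1.35 in HG-NC and 57.2 ± 2.90 in HG-OE (SD, n = 3), with HG-OE below in every library (exact two-sided permutation p = 0.1).

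These orders depend on the length used. For FXYD2, FXYD5 and FXYD6 the deposited FPKM divides by about the length of all annotated exons, which is 5608 bases for FXYD2 although its MANE Select transcript has 589 bases. For ATP1B1, whose model in the file is another version, the implied length of 3217 bases was far under the 12290 exon bases of GENCODE 44. Divided by the MANE Select transcript, FXYD2 in HG-NC came to 296.5 ± 9.17 CPM per kilobase, above ATP1B1 at 197 ± 2.03, ATP1B3 at 173 ± 1.02 and FXYD5 at 126 ± 2.85, with FXYD6 at 4.07 ± 0.332 (SD, n = 3). On that scale FXYD2 was 69.5% of the FXYD sum in HG-NC and 74.7% in HG-OE, FXYD5 29.5% and 25.04%, and FXYD6 0.954% and 0.221%. The summed FXYD level on that scale was 427 ± 10.1 in HG-NC and 423 ± 20.9 in HG-OE (SD, n = 3), and the groups overlapped (exact two-sided permutation p = 0.9), so the lower sum in HG-OE held in FPKM but not here. The direction of each of these 3 shares was that seen in FPKM, but which of FXYD2 and FXYD5 was higher in HG-NC was not.

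**Figure D4:**
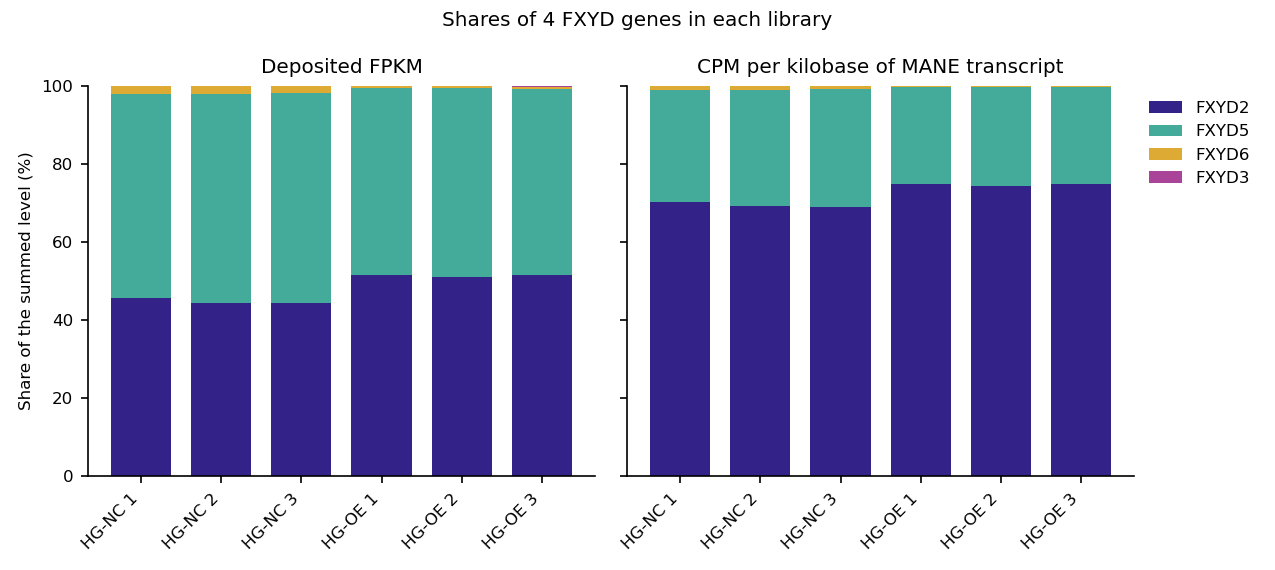
Share of FXYD2, FXYD5, FXYD6 and FXYD3 in their summed level in each library, in percent, by deposited FPKM (left) and by CPM per kilobase of the MANE transcript (right). In both panels the FXYD2 part is larger and the FXYD5 and FXYD6 parts smaller in each HG-OE library than in each HG-NC library.

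Of 9 other genes of the pump and the FXYD family, 8 were listed and 3 tested, of which NKAIN4 rose, FXYD6-FXYD2 fell and NKAIN1 did not pass. NKAIN4, from a family of membrane proteins that bind the pump, was at 5.545, 4.62 and 5.69 CPM in HG-NC and at 28.15, 26.3 and 21.85 CPM in HG-OE. All HG-OE libraries were several times above all controls, with a log2 fold change of 2.27 ± 0.114 (SE, adjusted p = 4.46e-09). Its relative NKAIN1 had a log2 fold change of 0.63 (adjusted p = 0.0756). FXYD1, the phospholemman of heart and muscle, had 20, 5 and 5 counts in HG-NC and 1, 5 and 0 counts in HG-OE and was not tested. FXYD4 of colon and collecting duct and FXYD7 of brain had at most 2 counts in a library.

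For each tested gene of the group, the 3 coding genes with the most similar profile were found by Pearson correlation of log2 CPM over the 6 libraries among 11557 coding genes with a mean of at least 100 counts. With so few libraries and so many genes, high values are to be had for any gene, and they are given as a description. The correlation leaves out the size of a change. For FXYD6 the genes were APP, PPM1G and FOXJ3 (r = 0.999 each), with log2 fold changes of −0.51, −0.36 and −0.22 against −2.12 for FXYD6. For FXYD5 they were TGIF1, AKAP8L and SIPA1L2 (r = 1.00, 0.998 and 0.998). For FXYD2 they were C1orf122, OPTN and RP1-65P5.6 (r = 0.995, 0.989 and 0.988). For ATP1B1 they were RWDD2A, PSMG4 and APLP1 (r = 0.984, 0.981 and 0.980), and for ATP1B3 SLC22A15, LRAT and TMEM38A (r = 0.992, 0.979 and 0.977).

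The carriers and channels that use the sodium gradient moved in both directions. Of 19 genes in this list 18 were in the count table and 14 tested, of which 4 rose, 2 fell and 8 did not pass. The 8 include SLC9A3R1, a gene for a scaffold protein and not for a carrier or channel. The median log2 fold change was −0.0014 against 0.011 for all genes. The 6 of 14 that passed are 42.9%, beside 51.8% of all genes tested. The sodium-proton exchanger gene SLC9A2 was at 1.02, 0.887 and 0.930 CPM in HG-NC and at 1.585, 2.34 and 2.94 CPM in HG-OE, and rose by 1.27 (adjusted p = 9.69e-04). SLC12A2, the sodium-potassium-chloride cotransporter of the basolateral membrane, rose by 0.68 (adjusted p = 8.42e-05). SLC20A2, a sodium-phosphate cotransporter, rose by 0.52 (adjusted p = 0.00822) and by 0.27 without HG-OE replicate 3, and without HG-NC replicate 1 or 2 it no longer passed (adjusted p = 0.0524 and 0.0520). Nor did it in the Wald test of DESeq2 (adjusted p = 0.0616) or in the 3 limma fits on FPKM (adjusted p = 0.0740 to 0.173).

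In the other direction, SLC4A4, the basolateral sodium-bicarbonate cotransporter of the proximal tubule, was at 30.3, 26.7 and 29.5 CPM in HG-NC and at 15.7, 17.55 and 18.8 CPM in HG-OE, and fell by 0.73 (adjusted p = 4.02e-06). The phosphate cotransporter SLC20A1 fell by 0.50 (adjusted p = 1.91e-07).

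Genes that regulate sodium transport also moved in both directions. All 18 were listed and 17 tested, of which 4 rose, 5 fell and 8 did not pass, with a median of −0.11 against 0.011 for all genes. The 9 of 17 that passed are 52.9%, beside 51.8% of all genes tested. SGK1, the kinase that is induced by steroids and cell stress and raises the activity of the pump and of sodium channels, was at 249.5, 264 and 256 CPM in HG-NC and at 150.5, 153 and 140.5 CPM in HG-OE. The groups were far apart, and it fell by 0.80 on the log2 scale (adjusted p = 8.57e-09). The kinase gene STK39, whose product phosphorylates SLC12A2 and related cotransporters, fell by 0.58 (adjusted p = 2.46e-07), and TSC22D3, a target of glucocorticoid and mineralocorticoid receptors, by 0.41 (adjusted p = 9.31e-06). WNK4, a kinase upstream of STK39, rose by 0.85 (adjusted p = 4.92e-04), SGK2 by 0.55 (adjusted p = 0.00164) and OXSR1, the close relative of STK39, by 0.26 (adjusted p = 5.18e-04).

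**Figure D5:**
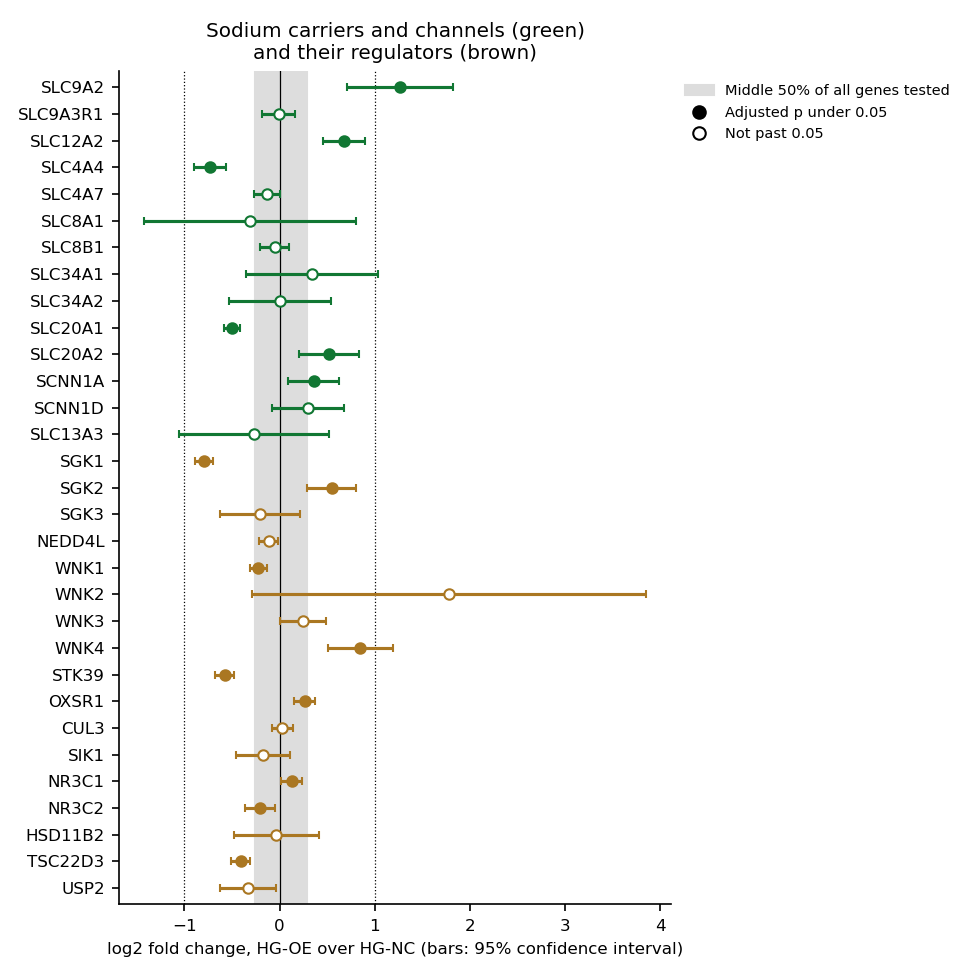
log2 fold change of HG-OE over HG-NC with its 95% confidence interval for 14 genes listed with sodium carriers and channels (green) and 17 regulators of sodium transport (brown). The green genes include SLC9A3R1, which codes for a scaffold protein. Filled points have an adjusted p under 0.05. Points lie on both sides of 0, with SLC9A2 the one filled point past 2-fold and a wide interval for WNK2, whose counts come mostly from HG-OE replicate 3.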

How the data were processed

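RNA of HK-2 cells was sequenced as directional poly(A) libraries, for which the labels name a pair of kits. After trimming, the authors mapped reads with HISAT2 (build GRCh38) and deposited raw counts of uniquely mapped reads per gene, with FPKM values beside them. The counter, its annotation and its use of strand are not given in the sources used here. The study names ComBat_seq for batches, and whether it entered the counts is not stated.

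The tests used edgeR 4.0.16 under R 4.3.3. Genes passing filterByExpr, 17142 of 31831, were normalized by TMM and compared with the quasi-likelihood test (glmQLFit and glmQLFTest), with Benjamini-Hochberg adjustment. Calls used an adjusted p under 0.05, and at least 2-fold where stated. Standard errors and 95% intervals come from that fit, and exact two-sided permutation tests over the 6 libraries were added. The study calls the libraries biological replicates, and its methods describe parallel wells for each group. Whether the wells were transduced separately is not stated, and the labels name no separate cultures. The p-values therefore measure the spread between these libraries. Shares were computed from the FPKM. Positions come from GENCODE release 44, in which ATP1B1 has a later version than the file. Library totals were 25507595 to 29444841, and limits given for counts of 0 cover counting error only.

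The members and gene lists were chosen with earlier results of these data known. Within a list, the genes named are those past the threshold with the largest change, up to 3 in each direction, and any other pump or FXYD gene. Coding genes tested within 250 kb of a member, and 3 genes with the most similar profile for members with a mean of at least 100 counts, were named too. Marker genes, DSCAML1 among the neighbours and WNK2 were named for their place or values. Some genes of the lists are not reported here, and the counts of their lists leave them out.

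The alternatives were DESeq2 1.42.0 (size factors, and its Wald test), no count filter, a minimum of 10 counts per gene and library, a replicate block, each library left out, limma 3.58.1 on log2(FPKM + 1) and log2(FPKM + 0.1) with a mean FPKM of at least 0.1 or no filter, and the median of neighbours within 10 Mb taken off. The steps were tested on simulated data.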

Additional observations from a re-analysis of the deposited data

How the results depend on the processing

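Of the members' log2 fold changes under alternatives with a test, 64 kept direction and side of the threshold. FXYD5 and FXYD6 passed in each fit. ATP1B1, near 0 throughout, changed sign with no count filter (−0.0097), with limma on log2(FPKM + 1), with or without a filter (−0.011), on log2(FPKM + 0.1) (−0.011) and among the fits that left out 1 library (−0.021 to 0.027), and its share difference ran from −0.042 to 0.84 percentage points. FXYD2 ran from 0.062 to 0.13, and passed without HG-OE replicate 3 (0.13, adjusted p = 0.00448 by edgeR). With neighbours within 10 Mb taken off, ATP1B1 was at 0.075, ATP1B3 at 0.16 and FXYD5 at −0.087. NKAIN1 passed without HG-OE replicate 3 (0.72, adjusted p = 0.0287 by edgeR).

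Genes changed at least 2-fold numbered 997, against 1539 with no count filter, 617 with at least 10 counts in every library, 144 on log2(FPKM + 1) and 138 there without a filter. Members past 2-fold were 2 with no count filter, since FXYD3 was added on the counts of HG-OE replicate 3, and 0 in both fits on log2(FPKM + 1), a scale that shrinks low genes such as FXYD6. With 1 library left out, 2 to 3 members passed. The FXYD6 share difference was −1.78 percentage points in raw counts and −0.73 per kilobase of MANE transcript, where that of FXYD2 was 5.21. These per kilobase shares were added after seeing the data.

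Same-numbered libraries deviated from their group means with correlations of −0.027, 0.030 and −0.00099. Such low correlations over all genes cannot show whether same-numbered libraries were prepared together. With a replicate block, 8849 genes passed in place of 8887 and 990 changed 2-fold, and the members past the threshold were 2 as before. Depth limits the low genes, with 1.17 counts per library on average for ATP1B2, 2.33 for FXYD3, 17.0 for FXYD6-FXYD2 and 114 for FXYD6.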

Other observations

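Other cation pumps of the same P-type ATPase family, which form a phosphorylated intermediate like the sodium pump, were set beside the beta subunits and FXYD genes. Of 19 such genes 16 were listed and 11 tested. Of these 4 rose, 5 fell and 2 did not pass an adjusted p under 0.05 (quasi-likelihood test of edgeR, Benjamini-Hochberg method). The share that passed was 81.8%, beside 51.8% of all genes tested, and the list was not tested as a set. Its median log2 fold change was −0.11, against 0.011 for all genes. None of the 11 changed at least 2-fold, where 5.82% of all genes did.

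The calcium pumps of the plasma membrane moved in opposite directions. ATP2B1 was at 94.1, 99.05 and 96.1 CPM in HG-NC and at 68.65, 62.2 and 65.1 CPM in HG-OE, and fell by 0.56 on the log2 scale (adjusted p = 4.04e-07). ATP2B4 was at 53.6, 60.3 and 60.2 CPM in HG-NC and at 79.1, 85.15 and 77.4 CPM in HG-OE, and rose by 0.47 (adjusted p = 9.81e-06). The groups did not overlap for either gene. The copper pumps also moved apart, with ATP7A at −0.58 (adjusted p = 6.51e-04) and ATP7B at 0.43 (adjusted p = 0.00798), although ATP7B did not pass in the 3 limma fits on FPKM (adjusted p = 0.145 to 0.155). ATP2C1, the calcium and manganese pump of the Golgi, fell by 0.38 (adjusted p = 2.48e-06). ATP2A1, the calcium pump of fast muscle, rose by 0.93 (adjusted p = 0.0310) at 1.02 CPM or less, and with 1 library left out its adjusted p ran from 0.0446 to 0.115. It did not pass with no count filter (adjusted p = 0.0788), with a replicate block (0.0529), in the Wald test of DESeq2 (0.101) or in the 3 limma fits (0.0582 to 0.155).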
